A study of Arabidopsis thaliana with 18 samples.

Results

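Transcripts of the plastid genome were followed in Arabidopsis thaliana seedlings treated with antimycin A, in wild type and in the mutants rao1-1 and rao1-2. The members are the 69 probe sets that the platform annotation assigns to 1 protein gene of the plastid genome, out of 22746 probe sets tested on the ATH1 array. The gene table used here holds 78 plastid protein genes. A further 8 plastid probe sets that match several gene records were left out. Of the members, 5 encode photosystem I subunits, 15 photosystem II subunits, 6 the cytochrome b6f complex, 10 the NDH complex, 6 the ATP synthase, 15 the plastid ribosome and 4 the plastid RNA polymerase, and 8 have other functions.

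Wild type is labelled Col:LUC, and the mutants' name is short for regulators of alternative oxidase 1a. Neither mutant line's lesion is given in the labels. Seedlings of all 6 groups were 14 days old and had grown on Gamborg B5 medium with 3% sucrose at 22 °C, with a day of 16 h light. Sprays held 50 µM antimycin A or only deionised water (mock), and green tissue was taken after 3 h. Each genotype and treatment has 3 arrays. Replicates are numbered but not stated to be separate cultures, and the p-values below thus rest on a spread that may be technical. Antimycin A blocks electron transfer through complex III of the mitochondrial respiratory chain. In plants it is also known to inhibit part of the cyclic electron flow around photosystem I.

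The plastid genome keeps genes for core subunits of the photosynthetic complexes and for part of its own gene expression machinery, while most plastid proteins are encoded in the nucleus. Its genes are transcribed by a bacterial-type polymerase whose core the plastid itself encodes, together with nuclear sigma factors, and by a phage-type polymerase from the nucleus. Many are transcribed in clusters as long precursors that nuclear RNA-binding proteins cut, splice, edit and stabilise, so the level of a transcript depends on processing as well as transcription. Plastid transcripts mostly lack the long poly(A) tails on which standard array labelling is primed. How far the intensities follow the amount of each transcript was not tested. In whole green tissue, fewer plastids or cells and less RNA per cell cannot be told apart.

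Plastid transcripts gave some of the brightest signals on the arrays. A background limit was placed at an intensity of 19.0, between the 2 modes of the log2 values, and 67 of the 69 members lay above it on all 18 arrays. The exceptions, petD and rpoB, each fell under it on 1 rao1-2 mock array. The probe sets of psaB, psbM, ndhI, atpE and atpB came nearest to the highest intensity in the table, 64819.8, at maxima of 36534 to 55792, and flags for saturated probes are not used here. Arrays correlated with others of their group at a mean r of 0.985 to 0.995 across probe sets. The 4 green tissue markers were bright on all arrays, the dimmest between 8082 and 16907. Of the 4 root markers with a named probe set, AT5G17820 was under the background limit on all arrays, AT4G30170 was above it on 1 array, AT4G11290 lay between 31.5 and 160, and AT3G09260 between 54.6 and 1466. All values below are intensities of single arrays in the order of replicates 1 to 3, or log2 changes with their standard error (SE) from limma. A transcript was called at a Benjamini-Hochberg adjusted p under 0.05 over all probe sets tested.

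**Figure D1:**
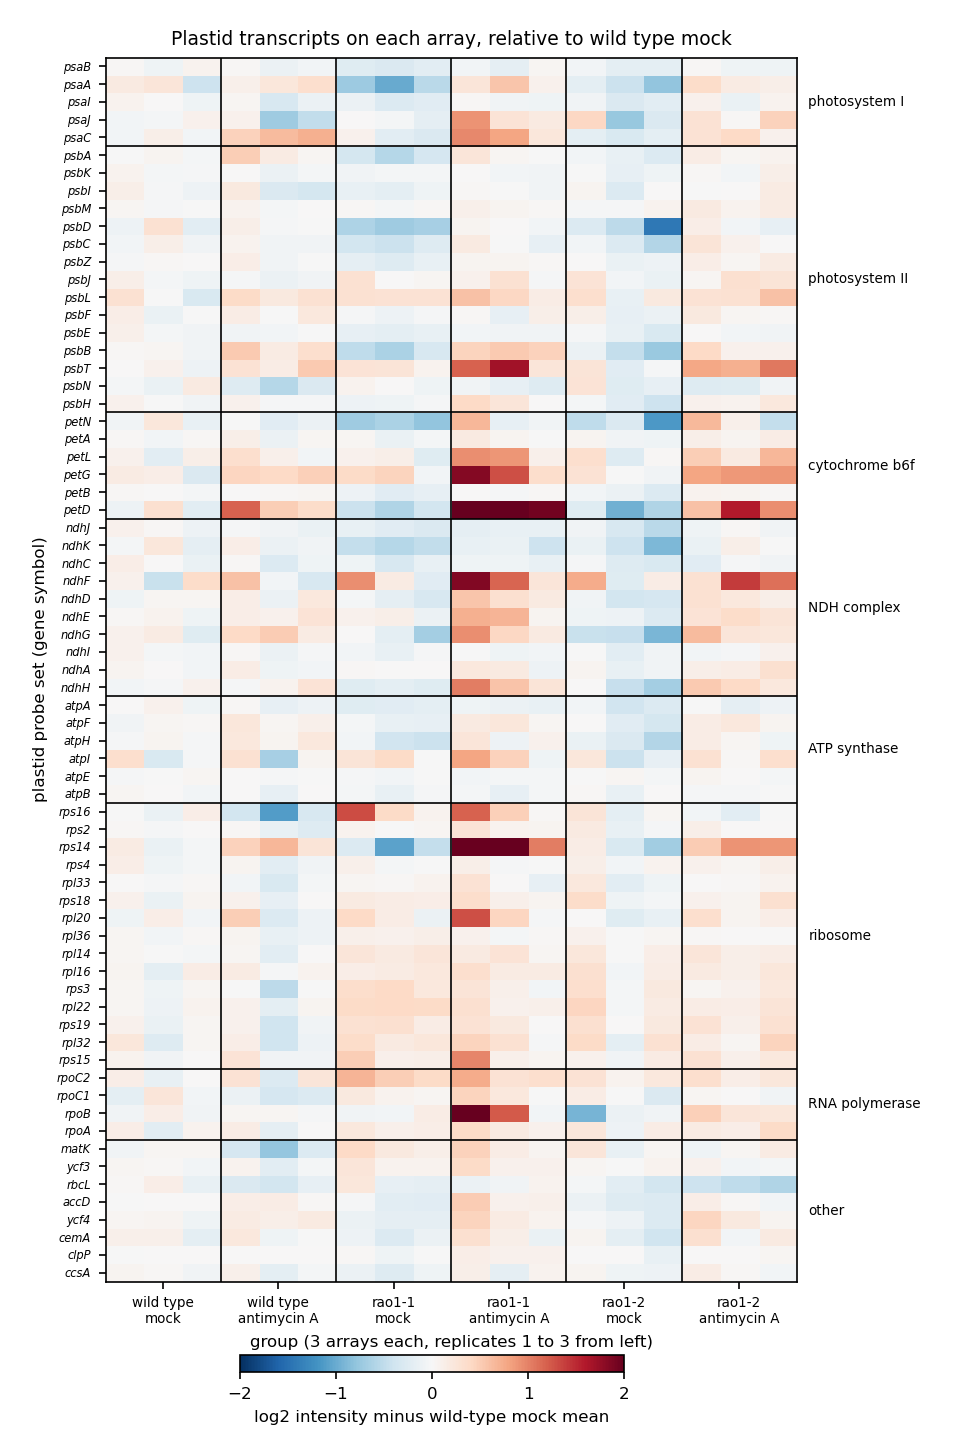
Log2 intensity of each plastid probe set on each of the 18 arrays, minus its mean over the 3 wild-type mock arrays, with genes in rows by function and arrays in columns by group. The colour scale stops at 2 either way, and the deepest reds are petD, rps14 and rpoB in rao1-1 antimycin A arrays, while the ribosomal rows are mostly pale, with rps14, rps16 and 1 array of rpl20 standing out.

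In wild type, antimycin A left most plastid transcripts near their mock level. psaC and petD rose, psbN and matK fell, and the median log2 change was -0.01. That is 2 of 69 members in each direction, where 14.4% of all probe sets were higher and 28.8% lower. The split depends on the scaling. Centring the arrays on 22 poly(A) control probe sets shifted all changes by -0.25, and then no member was higher and 26 were lower, 8 of them ribosomal. With centring on 12 hybridisation controls the split stayed at 2 higher and 2 lower.

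psaC encodes the photosystem I subunit that carries the terminal iron-sulfur clusters. Its intensities under mock were 255, 288 and 255, and under antimycin A 366, 413 and 435. The groups did not overlap, and the log2 change was 0.60 (SE 0.16, adjusted p = 0.0063), a 1.52-fold rise. This call was lost in 1 of the 14 alternatives run for it, the centring on poly(A) controls.

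petD encodes subunit IV of the cytochrome b6f complex. It measured 33.4, 44.8 and 31.3 under mock and 82.1, 50.7 and 46.8 under antimycin A. The groups were separate by a narrow margin, with replicate 1 the highest, and the change was 0.68 (SE 0.26, adjusted p = 0.049). The call was lost in 8 of 14 alternatives, including the omission of any of 4 single arrays.

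matK encodes a maturase that splices plastid introns, and its gene lies inside the intron of a tRNA gene. It gave 9017, 9709 and 9754 under mock and 7550, 5580 and 7811 under antimycin A. All treated arrays were lower than all mock arrays, and it fell by 0.46 (SE 0.14, adjusted p = 0.018). psbN, a photosystem II assembly gene read from the strand opposite to its neighbours, gave 1784, 1674 and 2067 under mock and 1529, 1238 and 1499 under antimycin A. It fell by 0.37 (SE 0.13, adjusted p = 0.030), again with no overlap. Each of these calls was lost without 1 of 3 single arrays, among them replicate 2 of wild type under antimycin A, which had the lowest value of both transcripts.

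In each class without a call in wild type, the member with the smallest p was named. In the ribosome it was rps16, a small-subunit protein gene, at 280, 255 and 308 under mock and 217, 130 and 225 under antimycin A. These groups were separate, but replicate 2 stood well under the others and the change of -0.60 (SE 0.32) had an adjusted p of 0.16. ndhG, an NDH subunit gene, measured 535, 567 and 428 under mock and 670, 723 and 565 under antimycin A. These groups overlapped by a narrow margin, and the change of 0.36 (SE 0.22) had an adjusted p of 0.22. The ATP synthase gene atpF changed by 0.12 (SE 0.09, adjusted p = 0.33) and rpoC1, an RNA polymerase subunit gene, by -0.24 (SE 0.13, adjusted p = 0.18), both with overlapping groups. rbcL, the large subunit of Rubisco, measured 5765, 6209 and 5141 under mock and 4661, 4409 and 5085 under antimycin A. Its change of -0.27 (SE 0.12) did not pass, at an adjusted p of 0.076.

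In both mutants some plastid transcripts rose under antimycin A, and 20 and 21 of them, in rao1-1 and rao1-2, belong to the 42 members of the photosynthetic complexes. In rao1-1, 24 of 69 members rose and none fell, with a median log2 change of 0.12. In rao1-2, 23 rose and none fell, with a median of 0.18. Same-numbered arrays deviated together in the rao1-2 response, and with the number as a block 29 rose, psbM, psaI, petA, cemA, accD and psbA in addition, and rbcL fell. The rao1-1 background was 15.8% of all probe sets higher and 24.8% lower, with a median of 0.04. For rao1-2 it was 15.6% and 27.3%, with a median of 0.03. The 2 responses share no arrays, and 20 transcripts were called in both, 83.3% of the rao1-1 calls and 87.0% of the rao1-2 calls. Their calls are not independent, since the fit gave each probe set the same residual variance in both responses. The matching shares over all probe sets were not computed, so whether this overlap is particular to plastid transcripts was not tested. Without the block, called in rao1-1 alone were petL, rpoB, accD and psbA, and in rao1-2 alone ndhA, ndhJ and ndhK.

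The direction of these counts depends on what the arrays are scaled to. Centring on the poly(A) controls shifted all changes by -0.22 in rao1-1 and -0.31 in rao1-2, and the rao1-1 calls became 6 higher and 5 lower. Those of rao1-2 became 5 higher and 10 lower. Centring on the hybridisation controls shifted them by -0.26 and -0.21. The rao1-1 calls were then 9 higher against 12 lower, and the rao1-2 calls 7 against 5. In rao1-1, psaC, ndhH, psbB, petD, rps14 and psaA were called higher in the fit as reported and in all 14 alternatives. In rao1-2 this held for ndhG, ndhH, psbB, petD and rps14. Single arrays also mattered: the rao1-1 count was 11 without antimycin A replicate 1 and 12 without mock replicate 3, and the rao1-2 count was 12 without mock replicate 3 and 14 without antimycin A replicate 1.

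petD had the largest change in both mutants. In rao1-1 its intensities were 26.7, 23.7 and 27.9 under mock and 148, 156 and 137 under antimycin A. In rao1-2 they were 30.6, 18.4 and 23.7 under mock and 53.9, 109 and 69.0 under antimycin A. Both separations were complete, and the 3 rao1-1 treated arrays lay above every other array. The change was 2.49 (SE 0.26, adjusted p = 5.9e-06), a 5.64-fold rise, in rao1-1, and 1.64 (SE 0.26, adjusted p = 0.00017), 3.11-fold, in rao1-2. The 1 rao1-2 mock array under the background limit makes that level a poorly measured one.

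**Figure D2:**
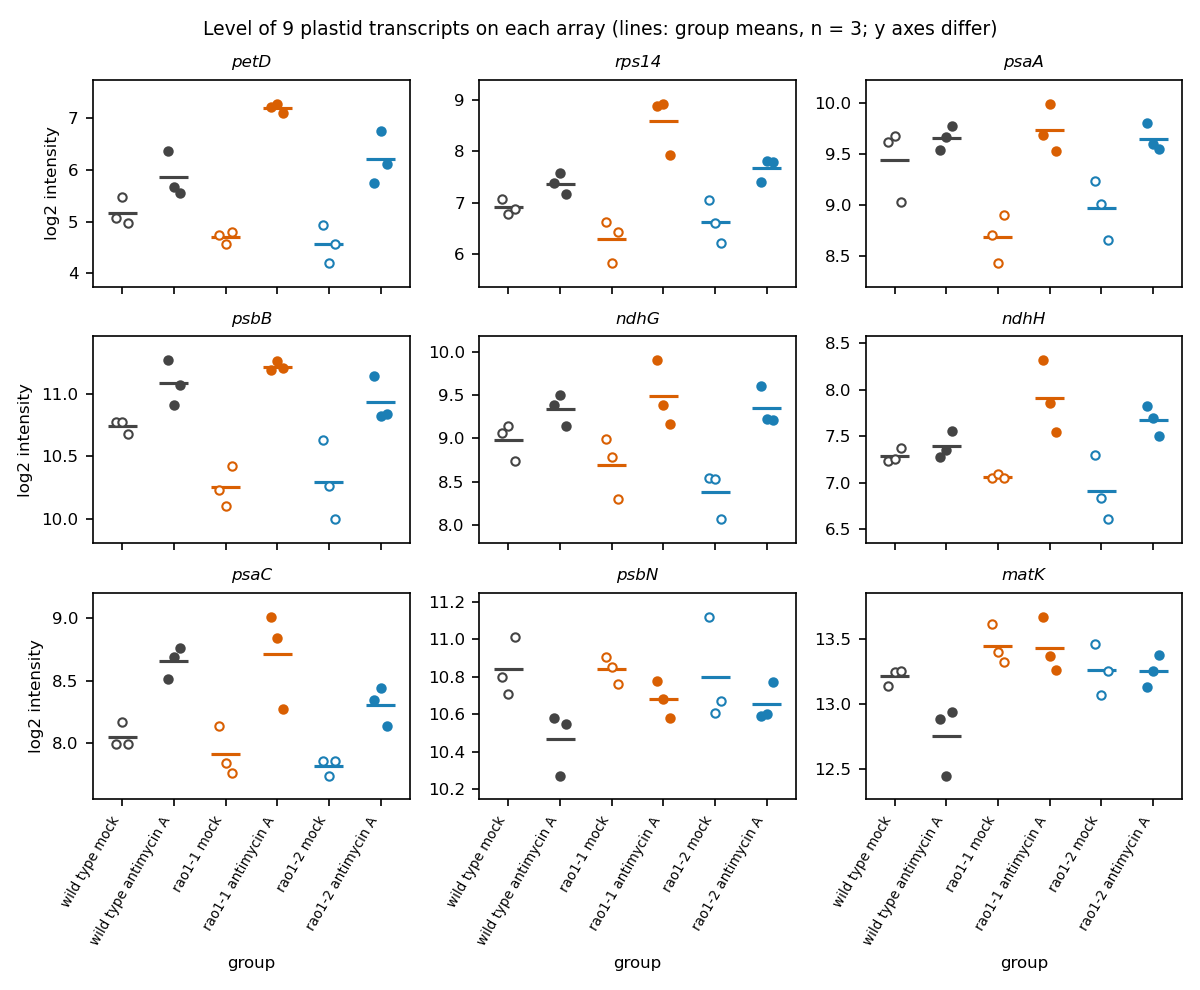
Log2 intensity of 9 plastid transcripts on each array of the 6 groups, open circles for mock, filled circles for antimycin A and lines for the mean of 3 arrays, with a separate vertical axis for each transcript. petD and rps14 reach their highest levels in rao1-1 under antimycin A, and matK and psbN have their lowest means in wild type under antimycin A. psaA and psbB have lower mock means in both mutants than in wild type, of which only psaA in rao1-1 was called.

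rps14, a small-subunit ribosomal protein gene that follows psaA and psaB in the genome, came second. Its rao1-1 values were 99.6, 57.2 and 86.3 under mock and 472, 484 and 244 under antimycin A. Its rao1-2 values were 134, 97.0 and 74.3 under mock and 170, 226 and 223 under antimycin A. Neither pair of groups overlapped, although the third treated rao1-1 array was well under the other 2. The change was 2.27 (SE 0.28, adjusted p = 2.2e-05) in rao1-1 and 1.05 (SE 0.28, adjusted p = 0.0070) in rao1-2.

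Among photosystem I transcripts, 2 of 5 rose in each mutant, psaA and psaC. psaA, which encodes a core protein that binds the reaction centre chlorophylls, measured 419, 346 and 480 under mock and 821, 1018 and 741 under antimycin A in rao1-1. It was complete in its separation there, with a change of 1.05 (SE 0.19, adjusted p = 0.00051). In rao1-2 it measured 605, 517 and 403 under mock and 896, 775 and 751 under antimycin A, a change of 0.68 (SE 0.19, adjusted p = 0.0094). psaC rose by 0.79 (SE 0.16, adjusted p = 0.0011) in rao1-1 and by 0.49 (SE 0.16, adjusted p = 0.021) in rao1-2. Its rao1-2 call was lost in 5 of 14 alternatives, with either control centring and without any 1 of 3 single arrays. The other core gene, psaB, changed by 0.18 in rao1-1 (adjusted p = 0.051) and 0.10 in rao1-2 (adjusted p = 0.27). Its probe set is one of the 5 near the top of the intensity range.

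Of 15 photosystem II transcripts, 7 rose in rao1-1 and 6 in rao1-2. psbB, the gene of the inner antenna protein CP47, gave 1202, 1101 and 1374 under mock and 2332, 2457 and 2362 under antimycin A in rao1-1. The treated arrays were tightly grouped well above the mock arrays, and the change was 0.97 (SE 0.14, adjusted p = 0.00010). In rao1-2 it gave 1580, 1229 and 1020 under mock and 2259, 1814 and 1827 under antimycin A, a change of 0.64 (SE 0.14, adjusted p = 0.0022). psbT, a small subunit gene beside psbB, rose by 0.84 (SE 0.26, adjusted p = 0.017) in rao1-2, from 998, 711 and 817 to 1417, 1360 and 1732. In rao1-1 it rose by 0.83 (SE 0.26, adjusted p = 0.021), but the groups overlapped: 2 treated arrays read 1874 and 2651 and the third, 979, lay within the mock values. psbA, which encodes the D1 protein of the reaction centre, rose by 0.51 (SE 0.11, adjusted p = 0.0018) in rao1-1 and changed by 0.24 (adjusted p = 0.094) in rao1-2.

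The cytochrome b6f complex carries electrons between the photosystems and had the highest class median, 0.75 in rao1-1 with 5 of 6 called and 0.57 in rao1-2 with 4 of 6. Beside petD, the small subunit gene petG rose by 0.90 (SE 0.27, adjusted p = 0.016) in rao1-1. Its values there were 711, 740 and 521 under mock and 1937, 1322 and 694 under antimycin A. The third treated array again lay among the mock arrays, and without either of the other treated arrays the call was lost. In rao1-2 petG read 662, 542 and 519 under mock and 942, 987 and 998 under antimycin A, with no overlap and a change of 0.77 (SE 0.27, adjusted p = 0.033). petB, the cytochrome b6 gene next to petD, had a much smaller rise of 0.17 in rao1-1 and 0.19 in rao1-2 (adjusted p = 0.026 and 0.011), which turned to a small fall when arrays were centred on either kind of control. petA, cytochrome f, was not called in either mutant without the replicate block.

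The NDH complex takes part in cyclic electron flow around photosystem I. Of its 10 transcripts, 4 rose in rao1-1 and 7 in rao1-2, with class medians of 0.36 and 0.46. ndhG had the largest change of the class in rao1-2, with 373, 369 and 268 under mock and 781, 601 and 593 under antimycin A. Treated arrays were all well above mock arrays, and the change was 0.97 (SE 0.22, adjusted p = 0.0023). In rao1-1 ndhG read 510, 441 and 316 under mock and 959, 672 and 574 under antimycin A, a change of 0.79 (SE 0.22, adjusted p = 0.0093).

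ndhH rose by 0.84 (SE 0.18, adjusted p = 0.0020) in rao1-1, from 133, 136 and 133 to 318, 232 and 186. In rao1-2 it rose by 0.76 (SE 0.18, adjusted p = 0.0038), from 157, 114 and 97.5 to 226, 207 and 180. Its groups were separate in both mutants. ndhE, between psaC and ndhG in the genome, rose by 0.45 in both (SE 0.14, adjusted p = 0.017 in rao1-1 and 0.016 in rao1-2), from 2231, 2197 and 1966 to 2851, 3065 and 2816 in rao1-2. ndhF had changes of 0.80 and 0.72 but an SE of 0.44, and did not pass, with adjusted p of 0.16 and 0.22.

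The plastid ATP synthase had 2 of 6 transcripts called in each mutant, atpF and atpH, which encode subunits of its membrane sector. atpF rose by 0.27 (adjusted p = 0.023) in rao1-1 and 0.33 (adjusted p = 0.0073) in rao1-2. atpH rose by 0.36 (adjusted p = 0.032) and 0.37 (adjusted p = 0.028). Both calls were lost in both mutants with arrays centred on either kind of control. Quantile normalization also ended the atpH call in both mutants and the atpF call in rao1-1. With the poly(A) controls 2 ATP synthase transcripts were called lower in rao1-2, and with the hybridisation controls 2 in rao1-1 and 1 in rao1-2. The catalytic sector gene atpB changed by -0.01 and 0.02, at an intensity between 38370 and 44231.

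Few genes of the plastid's own expression machinery passed the test. Of 15 ribosomal transcripts only rps14 was called in each mutant, and the class medians were 0.00 and 0.05. With arrays centred on the poly(A) controls rps14 was still called higher in each mutant, and 4 other ribosomal transcripts were called lower. With the hybridisation controls 6 were lower in rao1-1 and 1 in rao1-2. Of 4 RNA polymerase transcripts rpoB was called in rao1-1 and none in rao1-2. rpoB read 24.6, 24.7 and 28.6 under mock and 120, 60.1 and 24.6 under antimycin A in rao1-1, so the groups overlapped and the change of 1.12 (SE 0.40, adjusted p = 0.037) came from 2 of 3 treated arrays. Leaving out any of 5 single arrays ended that call. rpoA, rpoC1 and rpoC2 changed by between -0.06 and 0.14 in the mutants.

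Set together under the deposited scaling, 20 of 42 transcripts of the photosynthetic complexes rose in rao1-1 and 21 of 42 in rao1-2. For ribosome and polymerase it was 2 of 19 and 1 of 19. Whether these shares differ was not tested. With poly(A) centring, the higher calls in rao1-1 were 2 in photosystem I and 1 each in photosystem II, cytochrome b6f, NDH and ribosome. In rao1-2 they were 2 in NDH and 1 each in photosystem II, cytochrome b6f and ribosome. With arrays centred on the poly(A) controls, the class medians in rao1-1 were 0.30 for photosystem I, 0.53 for cytochrome b6f and 0.14 for NDH, while those of photosystem II (-0.10), ATP synthase (-0.08), ribosome (-0.22) and polymerase (-0.13) fell below 0. In rao1-2 they were 0.16, 0.27, 0.16, -0.12, -0.07, -0.26 and -0.21. Centring moves all classes alike, so the order of the classes is the same.

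**Figure D3:**
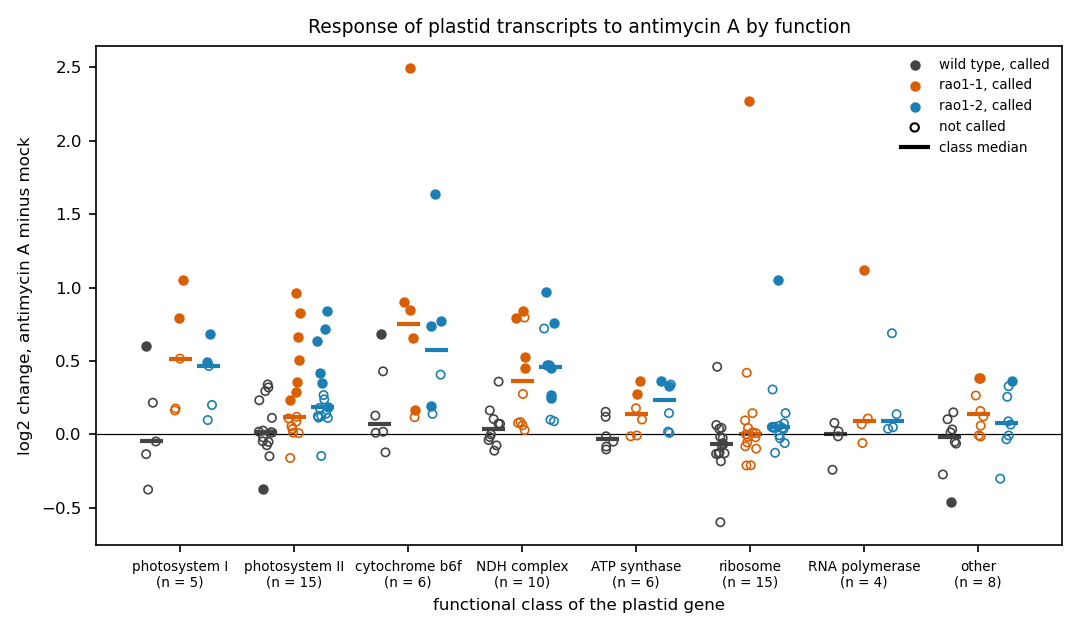
Log2 change under antimycin A (vertical axis) of every plastid probe set by functional class (horizontal axis), in black for wild type, orange for rao1-1 and blue for rao1-2, with filled circles for called transcripts and bars for class medians. In rao1-1 and rao1-2 the cytochrome b6f medians (0.75 and 0.57) and NDH medians (0.36 and 0.46) stand above the ribosomal medians (0.00 and 0.05), with rps14 as the 1 called ribosomal transcript.

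Of the 8 members with other functions, ycf4, a photosystem I assembly factor, rose by 0.39 (SE 0.11, adjusted p = 0.0091) in rao1-1 and by 0.36 (SE 0.11, adjusted p = 0.012) in rao1-2. accD, a subunit of the plastid acetyl-CoA carboxylase, rose by 0.38 (SE 0.10, adjusted p = 0.0068) in rao1-1 and changed by 0.26 (adjusted p = 0.052) in rao1-2. rbcL changed by -0.01 in rao1-1. In rao1-2 rbcL read 5507, 4899 and 4432 under mock and 4276, 4011 and 3730 under antimycin A, groups that did not overlap, with a change of -0.30 (SE 0.12, adjusted p = 0.051). matK changed by -0.01 and 0.00 in the mutants, and clpP, a protease subunit, by 0.12 and 0.07, none of them called.

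The transcripts called under the deposited scaling included runs of neighbours on the plastid genome, where the genes of a cluster are transcribed together. In the psbB cluster, psbB, psbT, psbH, petB and petD rose in both mutants, while psbN on the other strand changed by -0.16 and -0.15 (adjusted p = 0.32 and 0.38). In rao1-1 the changes of the 5 called genes of that cluster ran from 0.17 for petB, one of the brighter probe sets, to 2.49 for petD, one of the dimmest. With arrays centred on the poly(A) controls, psbB and petD stayed called in both mutants, and psbT, psbH and petB did not. The hybridisation controls gave the same, except that psbT stayed called in rao1-2. In the ndhH to ndhD cluster, which holds psaC, 5 of 7 rose in rao1-1 and 6 of 7 in rao1-2. ndhI, the exception in both, changed by 0.03 and 0.10, and its probe set is another of the 5 near the top of the range. Of this cluster, the poly(A) controls left ndhH and psaC called in rao1-1, and ndhH and ndhG in rao1-2. With the hybridisation controls ndhH, ndhG, psaC and ndhD stayed called in rao1-1, and ndhH, ndhG and ndhD in rao1-2.

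psbD, psbC and psbZ, adjacent photosystem II genes of which the first encodes the D2 protein, were all called higher in both mutants under the deposited scaling. All 3 calls were lost in both mutants when arrays were centred on either kind of control, and psbZ then changed by -0.12 and -0.020 in rao1-2. psbD read 2160, 2027 and 2089 under mock and 3431, 3319 and 3183 under antimycin A in rao1-1, with a change of 0.66 (SE 0.22, adjusted p = 0.026). In rao1-2 it read 2722, 2295 and 1230 under mock and 3640, 3174 and 2955 under antimycin A, a change of 0.72 (SE 0.22, adjusted p = 0.016). The mock and treated groups of psbD did not overlap in either mutant. None of the 5 genes of the rps19 to rpl14 ribosomal cluster was called, nor were the 4 of the psbE cluster or the 2 of the atpB cluster.

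**Figure D4:**
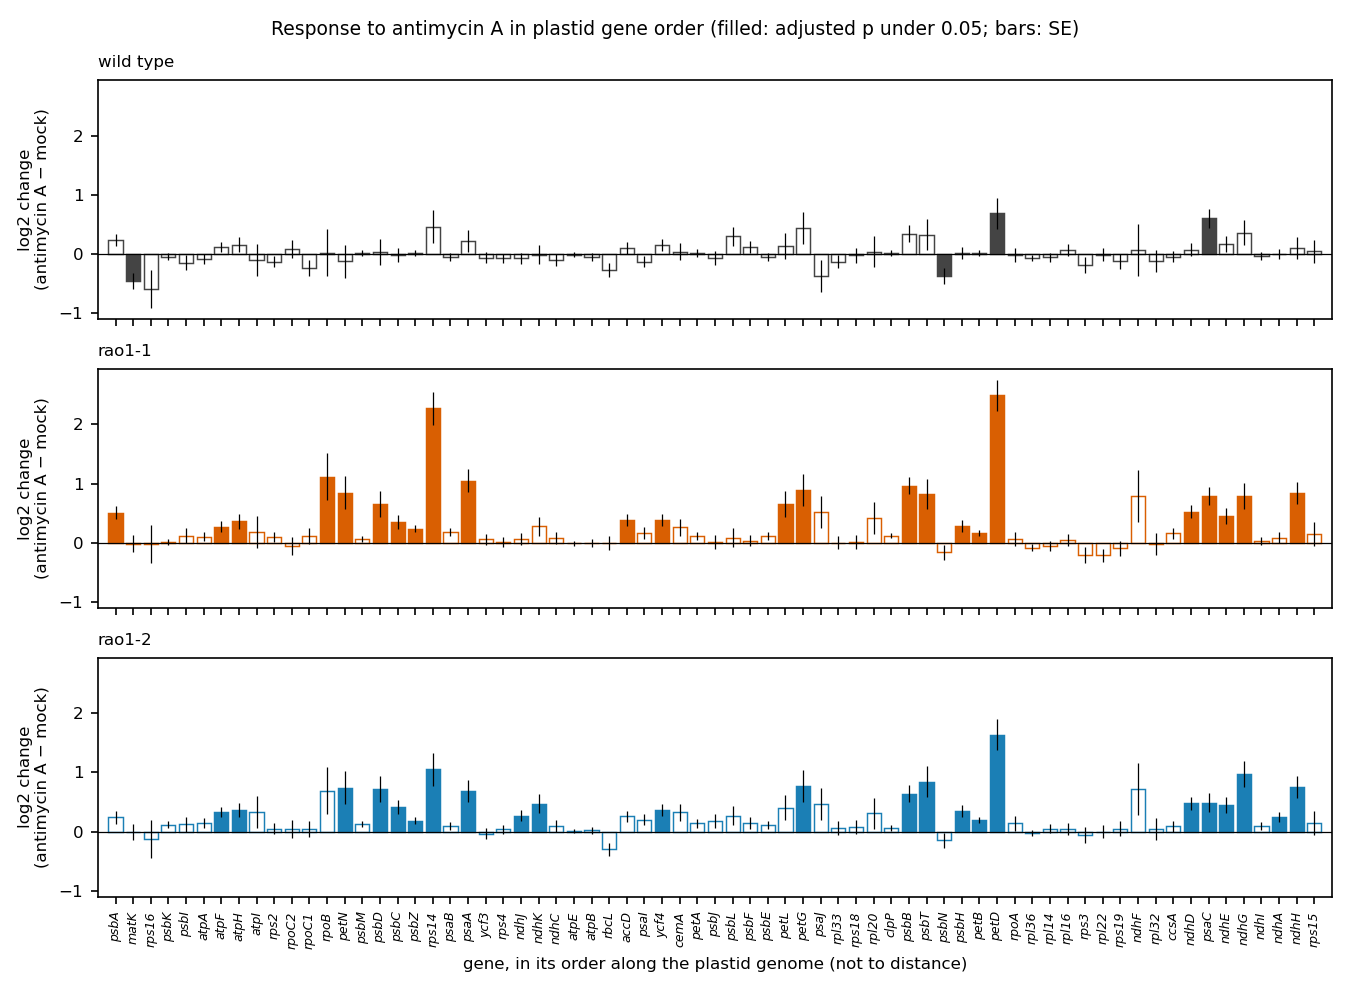
Log2 change under antimycin A with its SE for the 69 plastid probe sets in gene order along the plastid genome, in 1 panel per genotype, with filled bars for called transcripts. In both mutants, under the deposited scaling, filled bars cluster at psbD to psbZ, at psbB to petD with the gap at psbN, and at ndhD to ndhH.

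Larger changes lay among the dimmer probe sets. Among the 35 members at or below the median signal of the members, 20 rose in rao1-1 and 17 in rao1-2, with median changes of 0.42 and 0.37. Among the 34 above it, 4 and 6 rose, with medians of 0.06 and 0.11. The dimmest called transcripts were petD, rpoB and rps14, and the ribosomal transcripts were mostly bright. Signal and function are thus mixed among the members, and their parts in the result were not told apart by a test.

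**Figure D5:**
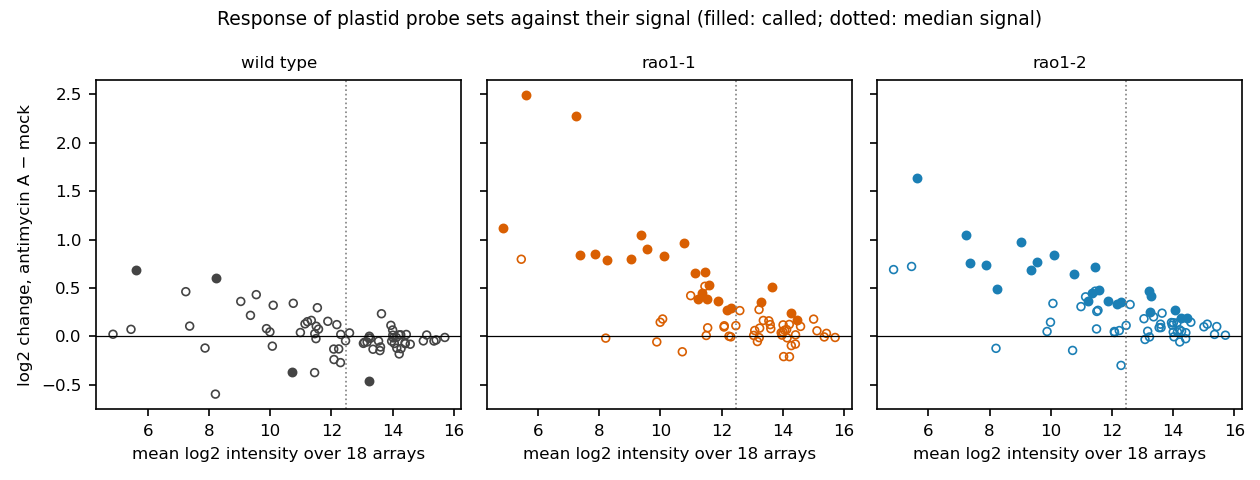
Log2 change under antimycin A (vertical axis) against the mean log2 intensity over 18 arrays (horizontal axis) for the 69 plastid probe sets, in 1 panel per genotype, with filled circles for called transcripts and a dotted line at the median signal. The largest changes, of petD and rps14, lie at the dim end, and changes narrow towards 0 at the bright end.

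The responses of mutants and wild type were then compared directly by the interaction of genotype and treatment. Over both mutants no member was called, where 0.396% of all probe sets were called. An unadjusted p under 0.05 was found for 16 of 69 members and for 2677 of all 22746 probe sets. The mean of the mutants' responses was higher than the wild-type response for 64 of 69 members (92.8%), against 63.1% of all probe sets, and the median difference was 0.20 against 0.05. Centring on the hybridisation controls shifted all differences by -0.22, which left 30 of 69 members above 0 and a median of -0.023, so the sign of this median depends on the scaling. With the poly(A) controls 63 of 69 were above 0. petD had a difference of 1.38 (SE 0.32, adjusted p = 0.10) and rps14 of 1.20 (SE 0.34, adjusted p = 0.18). A transcript called in the mutants and not in wild type is thus not shown to respond differently in them.

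In rao1-1 alone, the response minus that of wild type was 1.81 for petD (SE 0.37, adjusted p = 0.059) and 1.81 for rps14 (SE 0.40, adjusted p = 0.079). There 13 members had an unadjusted p under 0.05, as did 2458 of all 22746 probe sets. In rao1-2 the difference was 0.95 for petD (SE 0.37, adjusted p = 0.42) and 0.59 for rps14 (SE 0.40, adjusted p = 0.70). No member was called in either, with 0.369% and 0.198% of all probe sets called. psaC, called higher in every genotype under the deposited scaling, had a difference of 0.04 (SE 0.19, adjusted p = 0.94) over both mutants.

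Under mock, psaA and psbA were lower in rao1-1. There 2 of 69 members were lower than in wild type and none higher, against a background of 4.04% called. psaA read 784, 818 and 523 in wild type and 419, 346 and 480 in rao1-1, without overlap, and was 1.69-fold lower (log2 change -0.76, SE 0.19, adjusted p = 0.042). psbA read 12894, 13417 and 12643 in wild type and 10133, 8757 and 10322 in rao1-1, again without overlap, and was 1.34-fold lower (log2 change -0.42, SE 0.11, adjusted p = 0.046). Neither call is firm: without any 1 of 5 arrays psaA missed the threshold, and without any 1 of 6 arrays psbA did.

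The mock comparison also depends on the scaling. The hybridisation controls were dimmer in rao1-1 mock arrays, at a mean log2 of 11.62, and in rao1-2 mock arrays, at 11.68, than in wild-type mock arrays, at 11.80. Centring on them raised the rao1-1 changes by 0.18, and then 10 members were higher and none lower. Centring on the poly(A) controls moved them by -0.04 instead, and psbB, psaA and ndhK were then lower and none higher. With arrays centred on the median of all probe sets none was called.

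Under the deposited scaling, 9 of 42 transcripts of the photosynthetic complexes had a change above 0 in rao1-1 mock arrays, with a median of -0.14. For ribosome and polymerase it was 18 of 19, with a median of 0.16. Over all probe sets 51.2% were above 0, with a median of 0.003. Adding the shift of 0.18 would bring the photosynthetic median above 0, so the direction of that group under mock is not settled. The gap between the medians of the 2 groups does not depend on centring. rpl22, a large-subunit ribosomal protein gene, shows the other side: it read 15318, 13990 and 15659 in wild type and 19479, 19662 and 19447 in rao1-1, separate groups with a change of 0.38 (SE 0.11, adjusted p = 0.069).

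In rao1-2 under mock no member was called, against 1.37% of all probe sets. There 18 members had an unadjusted p under 0.05, as did 3060 of all 22746 probe sets. The median was -0.15 over the photosynthetic complexes, with 7 of 42 above 0. For ribosome and polymerase it was 0.06, with 14 of 19 above 0. Over all probe sets it was -0.01, with 44.1% above 0. psbD read 3087, 4096 and 2851 in wild type and 2722, 2295 and 1230 in rao1-2, groups that did not overlap, with a change of -0.74 (SE 0.22, adjusted p = 0.12). ndhG read 535, 567 and 428 in wild type and, as given above, 373, 369 and 268 in rao1-2, also without overlap (change -0.60, SE 0.22, adjusted p = 0.22). Leaving out replicate 1 of rao1-2 mock gave 5 members lower. This comparison shares the wild-type arrays with the one of rao1-1, so the 2 are not separate evidence.

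Under antimycin A, 3 members were higher in rao1-1 than in wild type and none lower, against a background of 3.27% called. petD was 2.53-fold higher (log2 change 1.34, SE 0.26, adjusted p = 0.014), rps14 2.30-fold (1.20, SE 0.28, adjusted p = 0.033) and matK 1.60-fold (0.68, SE 0.14, adjusted p = 0.021). The wild-type values were those given above: rps14 read 166, 191 and 144 in treated wild type, under all 3 treated rao1-1 arrays. matK read 13025, 10541 and 9809 in treated rao1-1, also above all treated wild-type arrays. Samples with the same replicate number deviated together in this comparison, and with the number as a block 5 members were called, rps2 and rps16 in addition. The count was 0 without replicate 2 of treated wild type, 1 without replicate 1 of treated rao1-1 or replicate 3 of treated wild type, and 10 without replicate 3 of treated rao1-1.

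The matK difference joins a fall in treated wild type, no fall in rao1-1 and a higher level in rao1-1 already under mock. Mock values of matK were 12521, 10808 and 10244 in rao1-1, above 9017, 9709 and 9754 in wild type. That mock change of 0.23 was not called. In contrast, psaA and psbB differed between genotypes less under antimycin A than under mock. psaA read 742, 810 and 875 in treated wild type, among the treated rao1-1 and rao1-2 arrays, and its difference from wild type under antimycin A was 0.08 in rao1-1 and 0.00 in rao1-2 (adjusted p = 0.83 and 0.99). psbB differed by 0.13 and -0.15 (adjusted p = 0.59 and 0.76). These comparisons share arrays with the responses and with the mock comparisons. Under the deposited scaling the lowest levels of psaA and psbB were those of the mutants under mock.

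In rao1-2 under antimycin A no member was called against wild type, where 2.46% of all probe sets were called. An unadjusted p under 0.05 was found for 9 members and for 3276 of all 22746 probe sets. petD differed by 0.35 (SE 0.26, adjusted p = 0.65) and rps14 by 0.30 (SE 0.28, adjusted p = 0.75). matK differed by 0.50 (SE 0.14, adjusted p = 0.091), with treated rao1-2 arrays at 8972, 9723 and 10619 above all treated wild-type arrays.

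Between the alleles no member was called under mock or under antimycin A, with 0.145% and 0.101% of all probe sets called. Under mock 2 members had an unadjusted p under 0.05, as did 1275 of all 22746 probe sets. Under antimycin A it was 4 members and 2072 of all probe sets. The largest gap was petD under antimycin A, lower in rao1-2 by a log2 change of -0.99 (SE 0.26, adjusted p = 0.21) with no overlap between the groups. rps14 followed with -0.90 (SE 0.28, adjusted p = 0.28), also without overlap.

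Nuclear partners of the plastid genes were looked for in lists chosen by function, of which few members have a named probe set. Their counts stand beside 28.8% of all probe sets lower in wild type, 24.8% lower for rao1-1 and 27.3% for rao1-2. Of 3 nuclear NDH genes, NdhL, NdhN and NdhS, all 3 fell in wild type under antimycin A, NdhL by 1.57 (SE 0.33, adjusted p = 0.0013). None was called in the mutants, where NdhL changed by -0.43 in rao1-1 (adjusted p = 0.30) and -0.85 in rao1-2 (adjusted p = 0.052). Of 6 nuclear photosystem, ATP synthase and Rubisco genes, 3 were lower in wild type and 2 in each mutant, the latter near the share over all probe sets. ATPC1, the gamma subunit of the plastid ATP synthase, fell by 1.23 in wild type and by 1.03 and 1.08 in rao1-1 and rao1-2 (adjusted p = 0.0014, 0.0053 and 0.0035). Of 8 nuclear genes for plastid ribosomal proteins, 5 were lower in wild type, and 2 and 3 in rao1-1 and rao1-2, again near that share in the mutants, and none was higher.

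The gene AT5G42310, the 1 member of the plastid RNA processing list with a named probe set, fell by 1.42 in wild type (adjusted p = 0.00017), 0.70 in rao1-1 (adjusted p = 0.023) and 0.71 in rao1-2 (adjusted p = 0.019). AT5G15700, the 1 member of the list of sigma factors and phage-type polymerases, fell by 0.60 in rao1-2 (adjusted p = 0.0028) and changed by -0.19 and -0.22 in wild type and rao1-1. No member of the list of polymerase-associated proteins has a named probe set. The 4 green tissue markers were all lower in treated wild type, with 1 lower in rao1-1 and 2 in rao1-2. Over all probe sets 28.8%, 24.8% and 27.3% were lower in the same comparisons. The marker AT1G67740 is also counted among the nuclear photosystem genes.

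Other RNA that usually lacks a long poly(A) tail moved the same way in all genotypes. The probe set for 25S ribosomal RNA changed by 0.84 in wild type and by 1.24 and 1.05 in rao1-1 and rao1-2. Of 18 probe sets for genes of the mitochondrial genome, several of which share a gene, 8 were higher in wild type, and 12 and 11 in rao1-1 and rao1-2, and none lower, with medians of 0.63, 1.12 and 1.09. Over all probe sets 14.4%, 15.8% and 15.6% were higher. cox1, a subunit of cytochrome c oxidase, rose by 1.19 in wild type (adjusted p = 5.3e-06), by 1.01 in rao1-1 and by 0.95 in rao1-2. Plastid members had medians of -0.01, 0.12 and 0.18 in the same comparisons. The part of labelling, RNA composition and mitochondrial transcript levels in the plastid changes was not tested.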

How the data were processed

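Values were read from 18 ATH1 arrays, 3 for each of 6 groups taken from the sample labels. The deposited intensities are linear and already normalized. Per the submitters' processing notes RMA and GCRMA were used, with no version, and the sources used here do not say which made these values. The log2 of each intensity was taken with no pseudocount, filter or further normalization. RMA and GCRMA equalise the distributions of arrays, so a change shared by most transcripts would not show.

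Of 22810 probe sets the 64 controls were left out. Names and gene order came from the platform annotation and RefSeq's gene table (assembly TAIR10.1), and all 69 members were matched by gene ID. As the sources used here name no build, coordinates and sequences are not given. No pair of arrays held identical values. Precision is limited by the number of arrays.

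The model, run in limma 3.58.1 (R 4.3.3) with eBayes, gave each group its mean over all 18 arrays and left 12 residual degrees of freedom. P-values are two-sided and adjusted by Benjamini-Hochberg over 22746 probe sets, with calls under 0.05. The fit was tested on simulated data. Tested were the antimycin A response of every genotype, mutants against wild type and against each other within each treatment, and the differences in response. The members and lists were chosen with earlier results of these data known. All members are counted, and those named are, per comparison, up to 6 called higher and 6 lower with the largest change, 1 per class, psaC, ndhE and ndhG, members whose call or sign differed between genotypes, and up to 3 per nuclear list. rpl22, psbD and ndhG under mock, rbcL, psaB, atpB, cox1 and further neighbours were named after their values were seen.

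Alternatives were median, quantile and control-probe centring, a background filter, an intensity trend, the compared groups alone, the replicate number as a block, and leaving out each array. Same-numbered arrays deviated together, with every correlation over 0.1, in the rao1-2 response (0.17, 0.15 and 0.14), in rao1-1 against wild type under antimycin A (0.29, 0.31 and 0.11) and in rao1-2 against wild type under antimycin A (0.28, 0.23 and 0.20). No other comparison had every correlation over 0.1, though single pairs did, as in rao1-2 against wild type under mock (0.43, -0.064 and 0.42). This pairing comes from the data, since the labels only number the replicates.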

Additional observations from a re-analysis of the deposited data

How the results depend on the processing

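Counts of plastid transcripts called moved with the scaling, the samples fitted and single arrays. With arrays centred on the poly(A) controls the counts for the response to antimycin A were 26 in wild type and 11 and 15 in rao1-1 and rao1-2, and with the hybridisation controls 12 in rao1-2 and 10 for rao1-1 under mock. With only the groups compared in the fit they were 2, 14 and 11 for the responses in wild type, rao1-1 and rao1-2, and 0 for rao1-1 against wild type under antimycin A. For rao1-1 under mock the count was 0 with median centring, 1 with quantile normalization and 1 with an intensity trend. With the replicate number as a block it was 6 for the wild-type response, 25 for rao1-1 and 30 for rao1-2 (29 higher, 1 lower), 5 (2 higher, 3 lower) for rao1-1 and 1 for rao1-2 under mock, and 5 for rao1-1 under antimycin A; the block left the differences in response, the alleles and rao1-2 under antimycin A at 0. Leaving out 1 array at a time gave 2 to 5 for wild type, 11 to 24 for rao1-1, 12 to 27 for rao1-2, 0 to 1 for rao1-1 and 0 to 5 for rao1-2 under mock, 0 to 10 for rao1-1 and 0 for rao1-2 under antimycin A, 0 to 1 for the difference in response over both mutants, the 1 being petD, and 0 between alleles. Called changes that turned negative in rao1-1 were petB at -0.053 with poly(A) controls and -0.090 with hybridisation controls, and psbZ at -0.020 with the latter. In rao1-2 with poly(A) controls they were ndhA at -0.059, petB at -0.11, psbZ at -0.12 and ndhJ at -0.039, and with hybridisation controls petB at -0.013 and psbZ at -0.020. These follow from the shift that each centring adds. The cause of the other moves was not tested. Members near the top or bottom of the intensity range, such as atpE, petD and rpoB, are measured least well.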
